A study of Canis lupus familiaris with 5 samples.

Results

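The locus described here is a stretch of 99740 bp on dog chromosome 9 (build CanFam3.1, 26100188 to 26199927), together with the 5 gene models that lie whole within it, of 32220 models in the count table. It was picked because the levels of its models step down from fibroblasts over induced neural stem cell-like cells (iNSLCs) to induced pluripotent stem cells (iPSCs). Its members were thus chosen by their measured levels in these 3 groups, and their differences between the groups are given as a description, without a test. The files identify models by Ensembl dog IDs (ENSCAFG numbers) and do not pair them with symbols. In the gene table at hand, which belongs to another assembly (UU_Cfam_GSD_1.0), 0 of the 32220 IDs were found. The members are therefore called by their IDs and structure, nothing is said of what they encode, and the labelled cell types were not checked against marker genes.

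The donor of all 5 RNA libraries was 1 adult dog (K9). The fibroblast library (n = 1) was made from skin fibroblasts at passage 1, cultured from the ear. The iNSLC library (n = 1, passage 2) came from the primary colonies that appeared after such fibroblasts received episomal vectors (EGFP, mouse p53 in a dominant-negative form, human LIN28, L-MYC, KLF4, SOX2 and OCT4, and additionally KLF2, NANOG, GLIS1 and KDM4D) and were cultured on mouse feeder cells in an induction medium. The iPSC libraries (n = 3) were clones 1, 2 and 3, at passages 9, 8 and 8, isolated by hand after the colonies had been transferred to medium for embryonic stem cells. The sources used here do not say whether the iNSLC library was 1 colony or a bulk culture. Passage went with group in every library, and the clones share 1 donor, so their spread is that between clones and not between animals.

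In reprogramming, introduced transcription factors move a differentiated cell towards a pluripotent state. Fibroblasts are the connective tissue cells of the skin, and their own expression program is shut down as pluripotency genes are switched on. Neighbouring genes can be regulated separately although they lie side by side, and a small gene can lie inside an intron of a larger one on the opposite strand. Where the counting does not use strand, unspliced RNA of the larger gene can then be counted for the smaller one.

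The 5 members differed in structure. From the lower coordinate upwards, the first was ENSCAFG00000016967 (26100188 to 26115188, plus strand), with 11 exons that hold 1439 bp of its 15001 bp. The next was ENSCAFG00000017004 (26134315 to 26151810, minus strand), with 10 exons and 5713 exonic bp. ENSCAFG00000017013 (26164316 to 26178396, plus strand) had 11 exons and 5500 exonic bp. ENSCAFG00000017016 (26169813 to 26170316, minus strand) was a single exon of 504 bp. ENSCAFG00000017018 (26183852 to 26199927, minus strand) closed the locus, with 51 exons in 16076 bp and 4708 exonic bp. They are called the first model, the 10-exon model, the host model, the 1-exon model and the 51-exon model in the following. Of the 5, 2 lay on the plus strand and 3 on the minus strand.

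**Figure D1:**
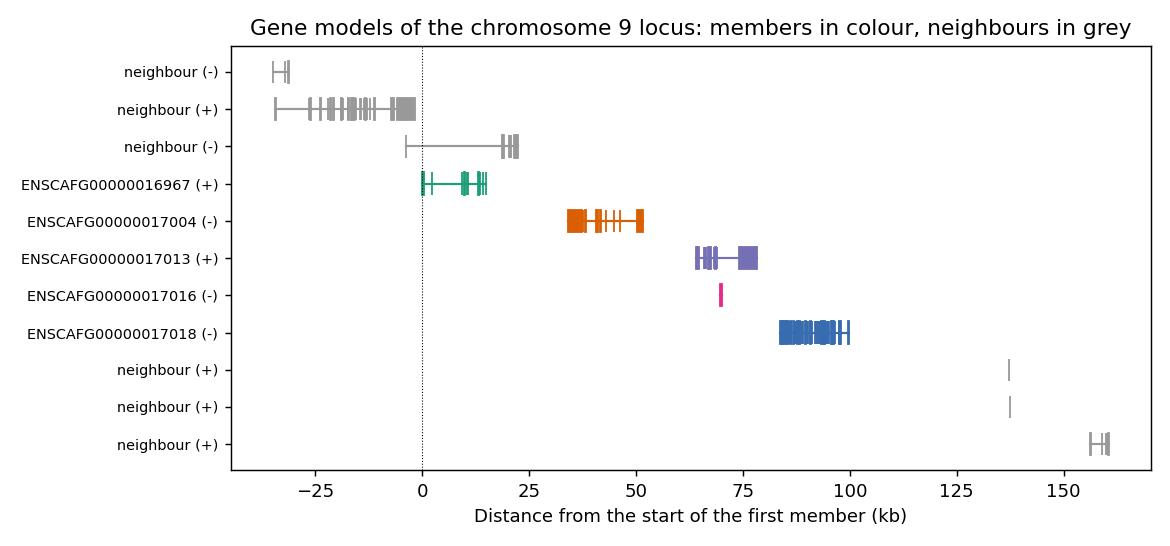
Exons (boxes) and spans (lines) of the gene models on the axis of distance from the start of the first member in kb, with the strand in brackets. The 5 members are in colour and neighbours in grey, and 1 long neighbour that begins farther to the left is not drawn. The 1-exon model lies within the span of ENSCAFG00000017013, and the first model within that of a grey neighbour.

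The 1-exon model lay inside the host model on the opposite strand, in an intron of 5105 bp that follows 9 of the host's exons and precedes the other 2. Its ends were 706 bp and 3895 bp from the nearest exons of the host. The first model lay whole within the span of a minus-strand neighbour with 7 exons (26096453 to 26122588), which reaches past the lower end of the locus and is not a member. In both cases the models shared 0 exonic bp, so a read within exons could be assigned to only 1 of them. The strand setting of the counting was unknown here, so reads from an unspliced transcript of the host could not be told apart from reads of the 1-exon model.

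Libraries held between 11699186 counts (iNSLC) and 34317091 counts (iPSC 3). Levels are CPM, a model's counts relative to the library total, scaled with TMM factors (0.770 for the fibroblast, 0.980 for the iNSLC and 1.08 to 1.12 for the iPSC libraries), unless another scale is named. A floor of 3 counts lay between 0.0810 and 0.262 CPM on this scale. Counting intervals are exact at 95% and cover counting error only, since the reads carry no molecular identifiers. Fewer cells expressing a gene and less RNA per cell cannot be told apart in bulk libraries such as these.

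The 51-exon model dominated the locus and the libraries of fibroblasts and iNSLCs. It had 37044 CPM in fibroblasts, 28218 CPM in iNSLCs, and 351, 337 and 233 CPM in iPSC clones 1, 2 and 3. By counts it was rank 1 of all models in the fibroblast library (949097 counts), rank 2 in the iNSLC library (323594 counts) and rank 384, 369 and 658 in the clones. Every clone was far below both other libraries, and yet the model remained one of the more abundant models of the iPSCs. The iPSC mean of 307 ± 64.4 CPM (SD, n = 3) was 121-fold below fibroblasts and 91.9-fold below iNSLCs. Per kb of exonic length, the scale on which models can be compared with each other, it was rank 4 of the 17479 tested models in fibroblasts and also in iNSLCs.

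The 10-exon model was next in abundance. It had 458 CPM in fibroblasts, 260 CPM in iNSLCs, and 55.8, 32.2 and 56.5 CPM in clones 1, 2 and 3. Clone 2 was the lowest and the other clones were nearly equal, and no clone reached the iNSLC level. The iPSC mean of 48.2 ± 13.8 CPM (SD, n = 3) was 9.52-fold below fibroblasts and 5.41-fold below iNSLCs. The first model had 59.3 CPM in fibroblasts, 44.1 CPM in iNSLCs, and 10.8, 8.01 and 12.5 CPM in the clones, again with clone 2 lowest. Its iPSC mean was 10.5 ± 2.28 CPM (SD, n = 3), 5.67-fold below fibroblasts and 4.22-fold below iNSLCs, the smallest ratios among the 4 members with counts in iPSCs.

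The host model and the 1-exon model were close to or at 0 in iPSCs. The host model had 103 CPM in fibroblasts (2648 counts), 30.7 CPM in iNSLCs (352 counts), and 0.526, 0.667 and 0.432 CPM in the clones, from 17, 15 and 16 counts. These few counts were above the floor in each clone, and the counting intervals of the clones overlap (0.306 to 0.841, 0.374 to 1.10 and 0.247 to 0.702 CPM). The iPSC mean of 0.542 ± 0.119 CPM (SD, n = 3) was 191-fold below fibroblasts and 56.7-fold below iNSLCs, the largest ratio to fibroblasts among members with counts in iPSCs. The 1-exon model had 221 counts in fibroblasts (8.63 CPM), 1 count in iNSLCs (0.0872 CPM) and 0 counts in every clone. Against 3 counts in each clone, a mean of 0.102 CPM, it was at least 84.2-fold lower in iPSCs than in fibroblasts. Between iPSCs and iNSLCs no ratio is given for it, as both lay under the floor.

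**Figure D2:**
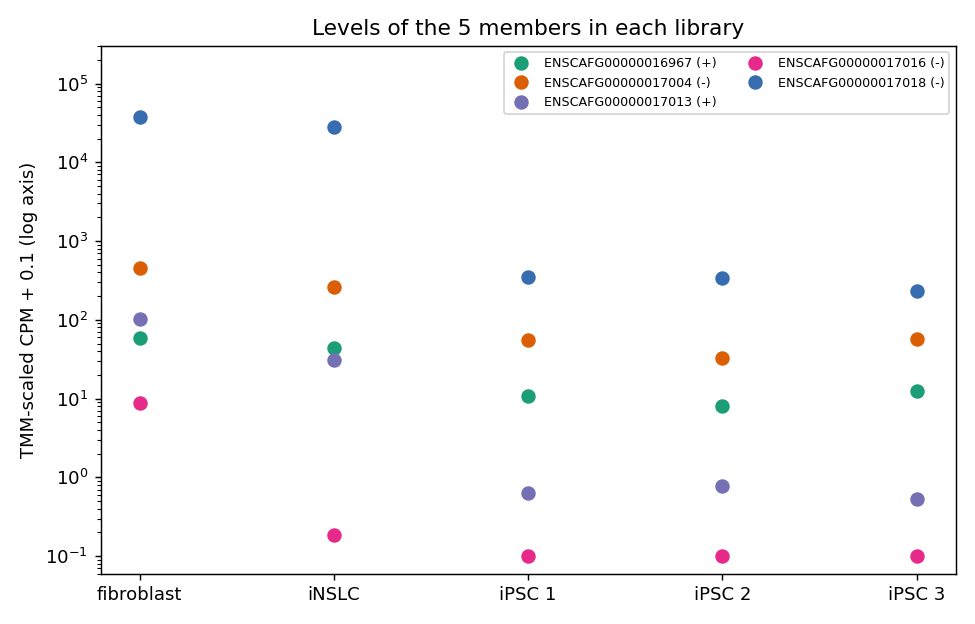
Level of each member in the 5 libraries, in TMM-scaled CPM to which 0.1 was added (log axis). Each point is 1 library. The 51-exon model (ENSCAFG00000017018) lies at 37044 CPM in fibroblasts, 28218 CPM in iNSLCs and 233 to 351 CPM in the clones, and the 1-exon model (ENSCAFG00000017016) is at 0 in every clone.

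Set per kb of exonic length, the order of the members was the same in every library, while the distances between them changed with the stage. In fibroblasts the 51-exon model had 7868 CPM per kb, the 10-exon model 80.2, the first model 41.2, the host model 18.8 and the 1-exon model 17.1. The host and the 1-exon model, which overlap, were thus at a like level per kb in fibroblasts. In iNSLCs they were apart, at 5.58 CPM per kb for the host and 0.173 for the 1-exon model. In iPSCs the 10-exon model and the first model had 8.43 ± 2.42 and 7.26 ± 1.59 CPM per kb (SD, n = 3). These means differ by less than the spread between clones, but the 10-exon model was the higher in each clone. It had 9.76, 5.64 and 9.88 CPM per kb in clones 1, 2 and 3, and the first model 7.52, 5.57 and 8.71. The 51-exon model kept a mean of 65.2 ± 13.7 CPM per kb (SD, n = 3), the highest of the members in every library.

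As a whole, the locus took 2.90% of the counts of the fibroblast library (Clopper-Pearson interval 2.89 to 2.91%) and 2.80% of the iNSLC library (2.79 to 2.81%). In the clones it took 0.0458%, 0.0424% and 0.0327%. The 51-exon model made up 98.3% of the locus counts in fibroblasts and 98.8% in iNSLCs, against 84.0, 89.2 and 77.1% in the clones. The 10-exon model made up 1.22% of the locus counts in fibroblasts, 0.912% in iNSLCs, and 13.3, 8.53 and 18.7% in the clones, where the sum was much smaller.

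The differences between groups can be set beside those of all tested models. On the scale of log2 CPM with a prior count of 2, the median difference of the members between iPSCs and fibroblasts was -6.81, against 0.21 over the 17479 tested models. This median is that of the 1-exon model and depends on the prior count, and with that model set to its bound it was -6.40. The members ranged from -2.52 to -7.40. All 5 passed the filter on low counts, the 1-exon model only through its fibroblast counts. In edgeR, 5 of 5 were called lower in iPSCs than in fibroblasts. Of all tested models, 14.3% were called lower and 28.0% in either direction. Nothing follows from this count, as the fall from fibroblasts to iPSCs chose the members. Every clone was below the fibroblast library for 5 of 5 members, against 35.9% of all tested models.

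Between iPSCs and iNSLCs the median difference of the members was -2.48, against 0.13 over all tested models. Without the 1-exon model it was -4.07. The 51-exon model differed by -6.54, the host model by -5.65, the 10-exon model by -2.48 and the first model by -2.09. Called lower were 4 of 5 members, where 7.71% of all tested models were called lower and 11.2% in either direction, and the 1-exon model was not called. Without iPSC clone 3 the number was 0, in a setting where edgeR called 0 models of the whole table, 4 members had an unadjusted p under 0.05 and 4863 of all models did. For 5 of 5 members every clone was below the iNSLC library, against 34.3% of tested models. Nothing follows from these counts either, as the order of iNSLCs and iPSCs also chose the members. The 1-exon model is among the 5 only by 1 count in iNSLCs against 0 in every clone, all under the floor.

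The order of fibroblast above iNSLC above every clone, by which the locus was described, is the choice itself. It held for 5 of 5 members with TMM and with library size as the only scaling, against 15.8% of tested models with TMM. For the 1-exon model the second step is only 1 count against 0. The size of the first step of this order depended on the scaling, which moves the ratio of every model by the same factor. With TMM, fibroblasts were above iNSLCs by 1.31-fold for the 51-exon model (counting interval 1.308 to 1.318), 1.34-fold for the first model (1.21 to 1.49), 1.76-fold for the 10-exon model (1.69 to 1.83) and 3.37-fold for the host model (3.01 to 3.77). With library size only, the ratio was 1.03 for the 51-exon model (1.027 to 1.035) and 1.06 for the first model, whose interval of 0.954 to 1.17 includes equal levels. It was 1.38 (1.33 to 1.44) for the 10-exon model and 2.64 (2.37 to 2.96) for the host model. The median of all tested models moved from -0.01 to 0.22 on the log2 scale between these scalings. The 1-exon model had a ratio of 98.9 with TMM, with an interval of 17.6 to 3924 because it rests on 1 count in iNSLCs. Of the 4 members with at least 10 CPM in fibroblasts or iNSLCs, 0 were lower by 4-fold or more in iNSLCs, where 5.69% of such models were. With 1 library each, the difference of iNSLCs from fibroblasts has no replicate check.

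**Figure D3:**
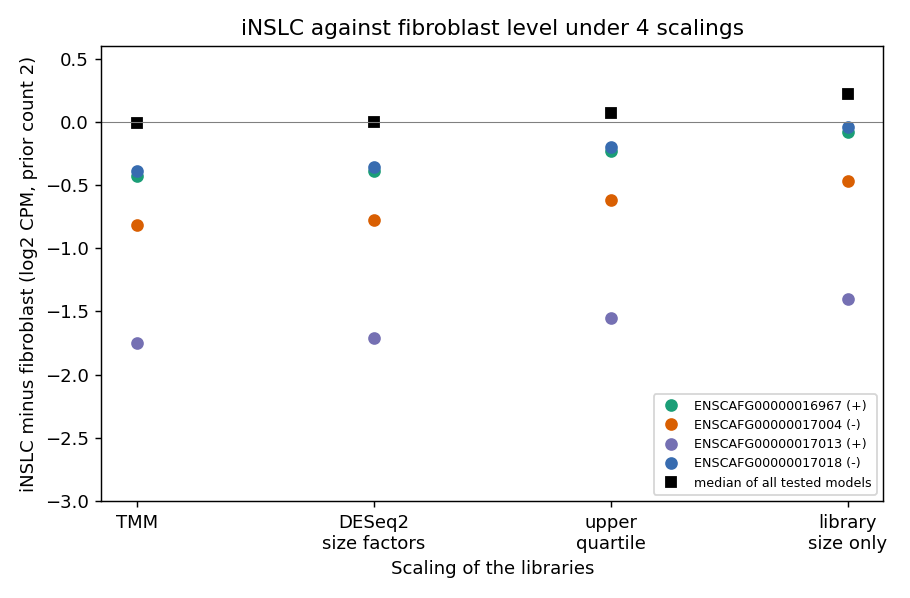
Difference of iNSLCs from fibroblasts in log2 CPM (prior count 2) for 4 members under 4 scalings of the libraries, with the median of all tested models as black squares. The 1-exon model, at -5.72 with TMM, is left out because it has 1 count in iNSLCs. The first model and the 51-exon model lie at -0.43 and -0.39 with TMM and at -0.08 and -0.04 with library size only. The host model moves by a like amount, from -1.75 to -1.40.

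How far the iNSLC library had moved between the other groups was expressed in log2 CPM, with fibroblasts at 0 and the iPSC mean at 100%. The 51-exon model was at 5.66% (5.37 to 5.84% against single clones), so that nearly all of its log2 difference lay between iNSLCs and iPSCs. The first model was at 16.9% (14.8 to 19.0%), the host model at 23.6% (22.8 to 24.6%) and the 10-exon model at 24.7% (21.3 to 27.0%). For the 1-exon model the position was 84.0%, a value set by the prior count, as its iNSLC and iPSC libraries held 1 and 0 counts. On the linear CPM scale the positions were further along, at 24.0% for the 51-exon model, 31.1% for the first model, 48.2% for the 10-exon model and 70.7% for the host model. With library size only, the log2 positions were 0.687% for the 51-exon model and 3.86% for the first model. They were 16.8% for the 10-exon model and 20.3% for the host model. Every one of these lay below the range over single clones with TMM, so the positions depend on the scaling. The first and the 51-exon model moved far more with the scaling than with the choice of clone.

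Ratios between members of the same library do not depend on the scaling. The first model had 0.129 counts per count of the 10-exon model in fibroblasts (counting interval 0.123 to 0.137), 0.169 in iNSLCs (0.154 to 0.186), and 0.194, 0.249 and 0.222 in the clones. This pair thus kept its proportion within less than 2-fold over all libraries, with the fibroblasts lowest. The 51-exon model had 80.8 counts per count of the 10-exon model in fibroblasts (79.4 to 82.3) and 108 in iNSLCs (105 to 112), against 6.30, 10.5 and 4.13 in the clones. In the iNSLC library this ratio was above that of fibroblasts by more than counting error, although both models were lower in iNSLCs. The host model went from 0.226 (0.216 to 0.235) in fibroblasts to 0.118 (0.105 to 0.132) in iNSLCs and to 0.00942, 0.0207 and 0.00765 in the clones. The members of the locus therefore did not keep constant proportions.

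**Figure D4:**
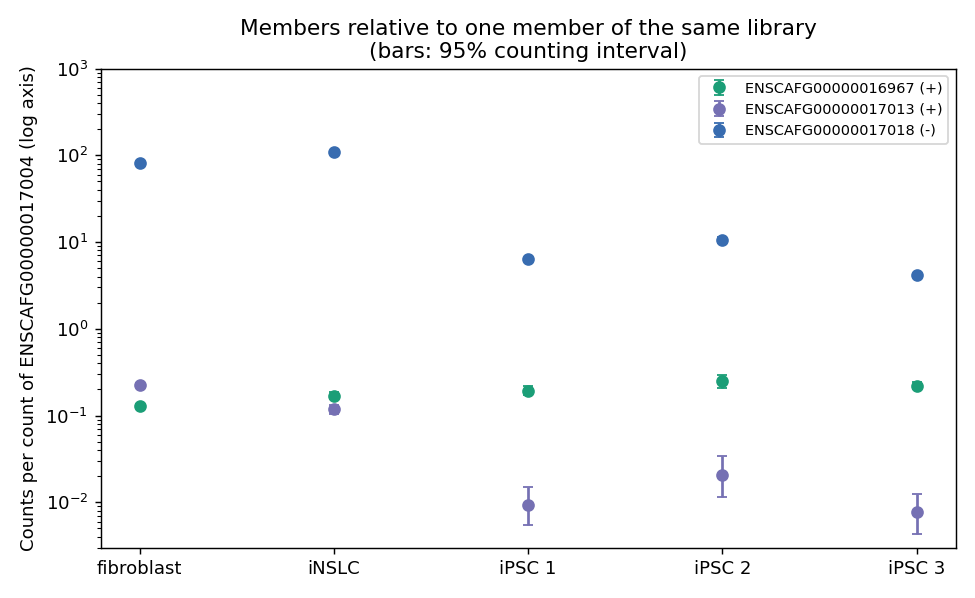
Counts of 3 members per count of the 10-exon model (ENSCAFG00000017004) in the same library (log axis). Points are single libraries, with bars for the 95% counting interval. ENSCAFG00000016967 stays between 0.129 and 0.249, while ENSCAFG00000017018 lies at 80.8 in fibroblasts and 108 in iNSLCs and between 4.13 and 10.5 in the clones.

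The overlapping pair was compared in the same way. Of the counts of the host and the 1-exon model together, the 1-exon model held 7.70% in fibroblasts (221 of 2869, Clopper-Pearson interval 6.75 to 8.74%) and 0.283% in iNSLCs (1 of 353, 0.00717 to 1.57%). These intervals do not overlap, but each rests on 1 library, they cover counting error only, and the fibroblast counts helped to choose the member, so the difference is a description. In the clones it held 0 of 17, 0 of 15 and 0 of 16, with upper limits of 19.5, 21.8 and 20.6%, all above the fibroblast share, so a difference was not detectable at this depth.

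The clones differed from each other in the members that remained expressed. Clone 2 had 57.4% of the mean of the other clones for the 10-exon model and 68.6% for the first model, but 115% for the 51-exon model. Clone 3 was the lowest for the 51-exon model, at 233 CPM (228 to 238) against 337 (329 to 344) in clone 2 and 351 (345 to 358) in clone 1. These intervals do not overlap, while the coefficient of variation between clones was 21.0% for the 51-exon model and 28.7% for the 10-exon model. No clone was lowest for every member. Each clone is 1 library, and differences between single clones were not tested.

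The models next to the locus did not show its stepwise order. Nothing follows from this, as the locus was picked for that order and such models would have extended it. On the lower side, a plus-strand model with 26 exons (26065807 to 26098534) ended 1653 bp before the first member. It had 91.4 CPM in fibroblasts, 7.41 CPM in iNSLCs and 17.5, 41.2 and 15.0 CPM in the clones. It was thus lowest in iNSLCs, whereas the 4 members with counts in iPSCs were lowest there. Its log2 fold change between iPSCs and fibroblasts was -1.90 ± 0.583 (SE, edgeR adjusted p = 0.0569), and over 10 alternatives the adjusted p lay between 1.48e-05 and 0.148 and was under 0.05 in 4. Against iNSLCs the log2 fold change was 1.73 ± 0.720 (SE, edgeR adjusted p = 0.166, between 0.0729 and 0.288 over the alternatives). The minus-strand neighbour whose span covers the first model was at 0.585 CPM in the fibroblast library, from 15 counts. Its iNSLC level was 1.31 CPM, also from 15 counts, and clones 1, 2 and 3 were at 1.51, 3.34 and 3.05 CPM. The levels rose where those of the first model fell, but clone 1 was close to the iNSLC library. An opposite stepwise order is not established, as neither comparison passed the test. The log2 fold change was 2.16 against fibroblasts (standard error 0.852, edgeR adjusted p = 0.105). For iPSCs against iNSLCs it was 1.01 (standard error 0.802, edgeR adjusted p = 0.423, between 0.345 and 0.580 over the alternatives).

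On the upper side no tested model lay within 56457 bp of the locus. The nearest one (26256385 to 26260751, plus strand) had 1.68 CPM in fibroblasts, 0 counts in iNSLCs and 4.33, 4.36 and 3.92 CPM in the clones. It was at least 16.1-fold higher in iPSCs than the 3-count floor of iNSLCs (edgeR adjusted p = 0.0166, between 1.36e-05 and 0.0852 over 10 alternatives, the highest without iPSC clone 3). Against fibroblasts it did not pass the test (edgeR adjusted p = 0.157).

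Within 500 kb on either side, 30 models lay outside the locus, of which 24 were tested. Between iPSCs and fibroblasts, 3 of them were called lower (12.5%, where 14.3% of all tested models were) and 5 higher (20.8%, against 13.7%). Between iPSCs and iNSLCs, 1 was called lower (4.17%, against 7.71%) and 5 higher (20.8%, against 3.51%). Without iPSC clone 3 the latter comparison had 0 calls in place of 6, with 8 of 23 at an unadjusted p under 0.05. The median log2 difference of the flanking models was 0.26 against fibroblasts and 0.55 against iNSLCs, where those of the members were -6.81 and -2.48. The flank model called lower in both comparisons (26017194 to 26023071, minus strand, 3 exons) had 30 counts in fibroblasts (1.17 CPM), 27 in iNSLCs (2.35 CPM) and 0 in every clone. It was at least 11.4-fold lower in iPSCs than in fibroblasts and at least 23.0-fold lower than in iNSLCs. Without iPSC clone 3 it was called in neither comparison. It passed the filter on low counts only through its fibroblast and iNSLC counts, and it was picked after its values were seen. Nothing follows from its calls, and the bounds are a description. Chromosome 9 outside the locus, with these flanks included, had 1026 tested models. Of these, 123 (12.0%) were called lower in iPSCs than in fibroblasts and 121 (11.8%) higher.

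**Figure D5:**
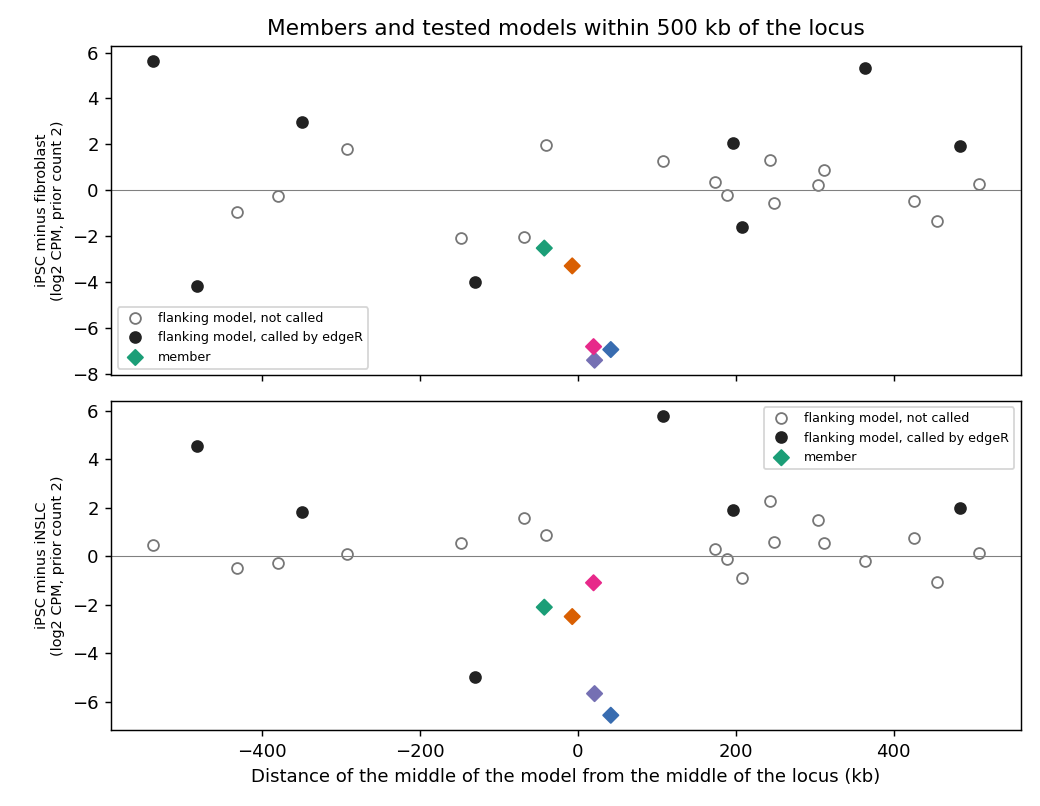
Difference of iPSCs from fibroblasts (top) and from iNSLCs (bottom) in log2 CPM (prior count 2) against the distance of the middle of each model from the middle of the locus in kb, for the 5 members (coloured diamonds) and 24 tested flanking models (circles, filled where edgeR called them). All 5 diamonds are below 0 in both panels, and 3 filled circles are below 0 in the top panel and 1 in the bottom panel. In the bottom panel the diamond of the 1-exon model rests on 1 count in iNSLCs against 0 in every clone.

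Some models elsewhere in the genome had a pattern more like that of the 51-exon model than the other members had, by a measure that depends on a pseudocount. Likeness was measured as the root mean square difference of log2(CPM + 1), centred on each model's own mean over the 5 libraries, among 9691 tested models outside the locus with a mean of at least 10 CPM. The nearest was ENSCAFG00000007845 (chromosome 21, 35033878 to 35074664, 8 exons), at a difference of 0.19. It had 273 CPM in fibroblasts, 179 CPM in iNSLCs and 1.45, 1.65 and 1.22 CPM in the clones. Next was ENSCAFG00000013633 (chromosome 30, 11331778 to 11337987, 4 exons), at 0.26, with 375, 414, 2.84, 2.58 and 0.972 CPM in the same order. Among the members the host model was the most like, at 0.87, and 71 models outside the locus were nearer. The 10-exon model was at 1.95 with 400 models nearer, the first model at 2.25 with 658 nearer and the 1-exon model at 2.63 with 1241 nearer. The pseudocount of 1 compresses models near 1 CPM in iPSCs. With a pseudocount of 0.1, an alternative chosen after seeing the data, the host model was at 0.47 with 19 models nearer, and ENSCAFG00000013633 was farther away, at 0.54 with 31 models nearer. ENSCAFG00000007845 was still the nearest, at 0.25. The first model had 647 models nearer, the 10-exon model 426 and the 1-exon model 670. As these are differences over only 5 libraries, 3 of them clones of 1 dog, they describe these libraries.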

How the data were processed

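RNA-seq counts were analysed for 5 dog libraries. The authors deposited raw read counts per gene model. The submitters' processing notes name STAR 2.5.3a, featureCounts 1.5.2, Trim Galore 0.4.0 and the build CanFam3.1. They do not give strand, multi-mapping or read-pair settings. Single-library tables and the series table held the same counts (0 differing values). Even values made up 59.6% to 74.0% of counts from 1 to 10, so mates of a pair may both have been counted and intervals may be too narrow.

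edgeR 4.0.16 in R 4.3.3 (quasi-likelihood test, TMM, filterByExpr, Benjamini-Hochberg adjusted p under 0.05) was fitted to all 5 libraries and 17479 models. The spread came from the 3 clones, and single libraries were assumed to vary like them. Standard errors of edgeR fold changes were back-calculated from the fold change and the statistic of its test. Alternatives were DESeq2 1.42.0, limma-voom (limma 3.58.1), other scalings, halved counts, no filter, an adjusted p under 0.01, flanks of 1 Mb, a prior count of 0.5 and leaving out each clone. Scripts were tested on simulated data. By rule, all members, the neighbours at the ends and the 2 models most like the most abundant member were described. The flank model at 0 counts in iPSCs was chosen after its values were seen. The members and lists were chosen with earlier results of these data known. Reads from vectors or mouse feeder cells were not separated. No sequence is printed, as no table at hand pairs these IDs with one.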

Additional observations from a re-analysis of the deposited data

How the results depend on the processing

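The direction of every member's difference was the same under all alternatives run. For the 1-exon model between iPSCs and iNSLCs it could not change, as 1 count in iNSLCs stands against 0 in every clone. Of 115 values of single members recomputed under an alternative, 75 stayed within the spread between clones (or, for iNSLCs against fibroblasts, the counting interval) and 40 moved beyond it. Of the latter, 18 belong to the 1-exon model, whose spread between clones is 0 as every clone has 0 counts, so that any change counts as a move. No paired analysis was possible because fibroblasts and iNSLCs have 1 library each. At an adjusted p under 0.01, 2 members were called lower against iNSLCs and 4 and 0 flanking models were called against fibroblasts and iNSLCs. With flanks of 1 Mb, 13 and 10 models were called, and limma-voom called 3 flanking models against iNSLCs. Leaving out 1 clone gave 0 to 4 called members and 0 to 7 called flanking models against iNSLCs, the 0 in each case without iPSC clone 3, and 5 members and 6 to 10 flanking models against fibroblasts. The median log2 difference of the members from fibroblasts was -6.66 with the upper quartile, -6.42 with library size only, -5.82 with halved counts, -6.94 with a prior count of 0.5 and -6.81 to -6.62 without 1 clone. It was -5.12 without the 1-exon model and -6.40 with that model at its bound, both chosen after seeing the data. From iNSLCs it was -2.69 to -2.26 without 1 clone and -4.07 without the 1-exon model. The median of iNSLCs against fibroblasts was -0.62 with the upper quartile, -0.47 with library size only and -0.62 without the 1-exon model. Where the 1-exon model sets the median, its 0 counts make the value follow the prior count, and for the other changes the cause was not tested. Leaving out mitochondrial models raised the share of the locus to 3.03% in fibroblasts, 2.87% in iNSLCs, and 0.0487, 0.0471 and 0.0350% in the clones. Over all tested models, edgeR called 4895 against fibroblasts (2508 lower) and 1961 against iNSLCs. Without iPSC clone 3 it called 2774 and 0, without iPSC clone 2 it called 4159 against iNSLCs, DESeq2 called 3480 there, and with library size only 1810 of 5671 calls against fibroblasts were lower. No members share exonic bases, so leaving such models out changed no median.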
